A study of Homo sapiens with 6 samples.

Results

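The mitochondrial ribosomal protein genes were examined in BEAS-2B, a human bronchial epithelial cell line, after treatment with RSL3 with and without indirubin. They were taken as every protein-coding gene of the deposited expression table whose symbol is MRPL or MRPS followed by a number, with or without a final letter A to C, counted once per Ensembl identifier. This rule gave 78 of the 35019 identifiers and used no measured value. The large subunit of the mitochondrial ribosome accounts for 51 of them, including MRPS30 and MRPS18A, which sit in the large subunit despite their names. The small subunit accounts for 26. The remaining gene, MRPS36, carries the family name, but its product is now known as a part of the ketoglutarate dehydrogenase complex.

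RNA had been sequenced in 6 libraries. In 3 of them, called RSL3+ID here, the cells received indirubin 2 h before RSL3 at 2 µM, which was then present for 24 h. In the other 3, called RSL3, they received RSL3 at 2 µM for 24 h alone. RSL3 inhibits the lipid peroxidase GPX4 and starts ferroptosis, an iron-dependent form of cell death. Indirubin is a bis-indole dye known to inhibit several kinases and to bind the aryl hydrocarbon receptor. All 6 libraries thus come from cells given RSL3, and the labels state the indirubin dose only as a range of 7.5 to 30 µM. Untreated cells and cells given indirubin alone are not analysed here, so an altered response to RSL3 and an effect of indirubin itself cannot be told apart. Whether the libraries were made from separate cultures is not stated in the labels, so the p-values below measure only how much these libraries varied, which may be technical variation. In bulk RNA of this kind, fewer cells expressing a gene and less RNA per cell cannot be told apart either.

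The mitochondrial ribosome translates the few proteins encoded in mitochondrial DNA, all of them subunits of the oxidative phosphorylation complexes. Its ribosomal RNAs come from the mitochondrial genome, but its proteins are encoded in the nucleus, translated on cytosolic ribosomes and imported. Some descend from bacterial ribosomal proteins, others are specific to mitochondria, and the genes are active in almost every tissue. In the lists used here, 30 large subunit and 17 small subunit genes encode homologues of bacterial proteins. The other 21 large subunit and 9 small subunit genes encode proteins grouped as specific to mitochondria, and MRPS18A is counted among them although it is a paralogue of MRPS18B and MRPS18C, which are counted with the bacterial homologues.

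Between 15206183 and 18506637 reads per library fell on listed genes. Levels are given as normalised counts, which are reads divided by the authors' size factors, and as RPKM, reads per kilobase of exon and 1e6 reads, where genes are compared with each other. Among the epithelial markers KRT8 was abundant, at 17096 to 20558 normalised counts in RSL3+ID and 21190.3 to 24043 in RSL3. The epithelial adhesion gene CDH1 was near 0, at 2.97 to 39.1 in RSL3+ID and 1.79 to 7.23 in RSL3. The mesenchymal gene VIM had 4662 to 10206 in RSL3+ID and 8072 to 8990 in RSL3. The leukocyte gene CD3E had no read in any library, which allows up to 0.162 to 0.197 CPM (3 reads, counting error only), and PTPRC, CD68 and PECAM1 each stayed under 10 normalised counts. Of the other endothelial markers, VWF had 35.9, 12.9 and 20.2 in RSL3+ID against 44.7, 46.5 and 42.3 in RSL3. CDH5 had 26.4, 3.96 and 6.74 in RSL3+ID against 7.15, 29.95 and 2.06 in RSL3. RSL3+ID library 2 was the highest library for 57.7% of the mitochondrial ribosomal and 53.2% of the respiratory chain genes, as described below. Over all tested genes it was the highest for 25.4% and the lowest for 23.8%. The family median, the calls and some of the estimates that RSL3+ID library 2 moved are therefore also given without it. Other estimates are given with all 6 libraries only.

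The family was well expressed, and all 78 genes passed the filter of the test, a mean of 10 normalised counts over the 6 libraries. Their median level was 20.5 RPKM, against 3.47 RPKM over all 14188 tested genes. Large subunit genes had a median of 24.7 RPKM and small subunit genes one of 12.3 RPKM. MRPL18, the homologue of a bacterial protein that binds 5S ribosomal RNA, stood far above the others at 836 RPKM, which was 40.9 times the median of the family. MRPL14, which binds at the interface between the subunits, came next at 134 RPKM. In the small subunit, MRPS26, a protein specific to mitochondria, and MRPS21, the homologue of a bacterial protein, were highest, at 80.7 and 64.7 RPKM. The lowest levels were those of MRPL38 at 0.930 RPKM and MRPS17 at 1.14 RPKM.

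**Figure D1:**
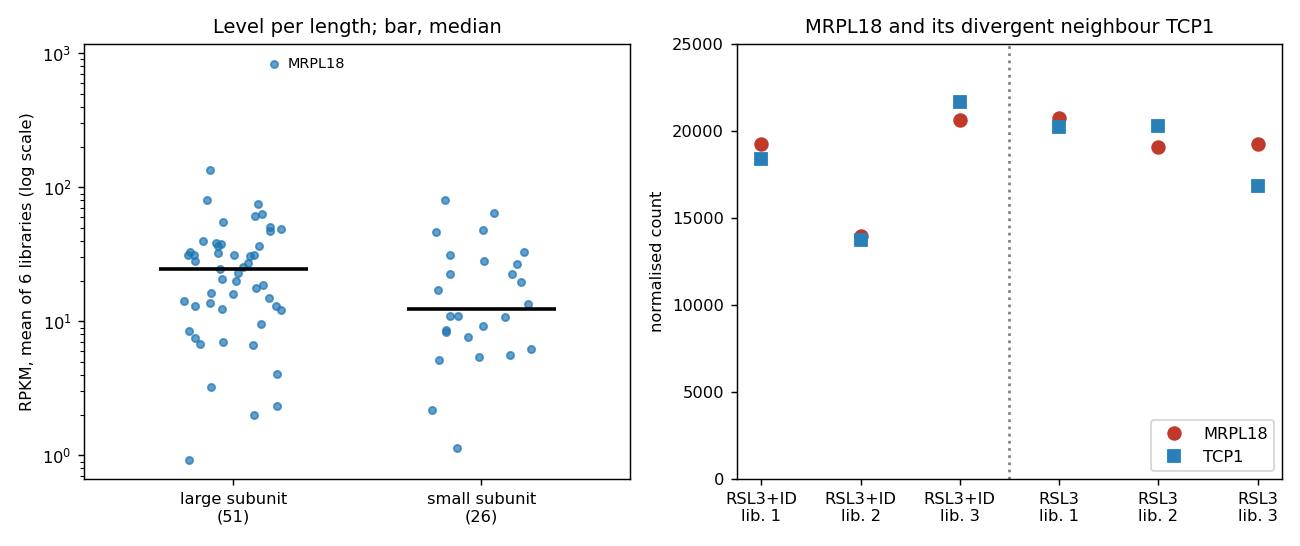
Left, mean RPKM over the 6 libraries on a log axis, with 1 point per gene of the large subunit (51) and the small subunit (26) and the median as a bar; MRPL18 stands alone at 836 RPKM. Right, normalised counts of MRPL18 and of TCP1, the gene that starts beside it on the opposite strand, in each library; both are lowest in RSL3+ID library 2, at 13982 and 13754.

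Setting RSL3+ID against RSL3 asks whether the supply of mitochondrial ribosomal protein transcripts differs when indirubin is present during GPX4 inhibition. No gene of the family was called. At an adjusted p under 0.05 in limma with Benjamini-Hochberg adjustment, 0 of 78 members passed, against 271 of all 14188 tested genes (1.91%, with 1.08% higher with indirubin and 0.832% lower). At an unadjusted p under 0.05 there were 6 higher and 4 lower members, or 12.8% of the family, against 19.3% of all tested genes. The smallest adjusted p in the family was 0.0855, and limma-voom on the recovered reads likewise called 0 members, with 10 at an unadjusted p under 0.05. The estimates ran from −0.48 to 0.58 on the log2 scale, with 44 above and 34 below 0. Their median was 0.05 and their quartiles were −0.10 and 0.19, while over all tested genes the median was −0.02 and the quartiles were −0.29 and 0.26. For 75 of the 78 genes the 95% interval lay wholly within a 2-fold change in either direction. The intervals of MRPL38, MRPS17 and MRPS28, all of low level, reached beyond it; MRPL38 and MRPS28 were named for this after their values were seen.

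**Figure D2:**
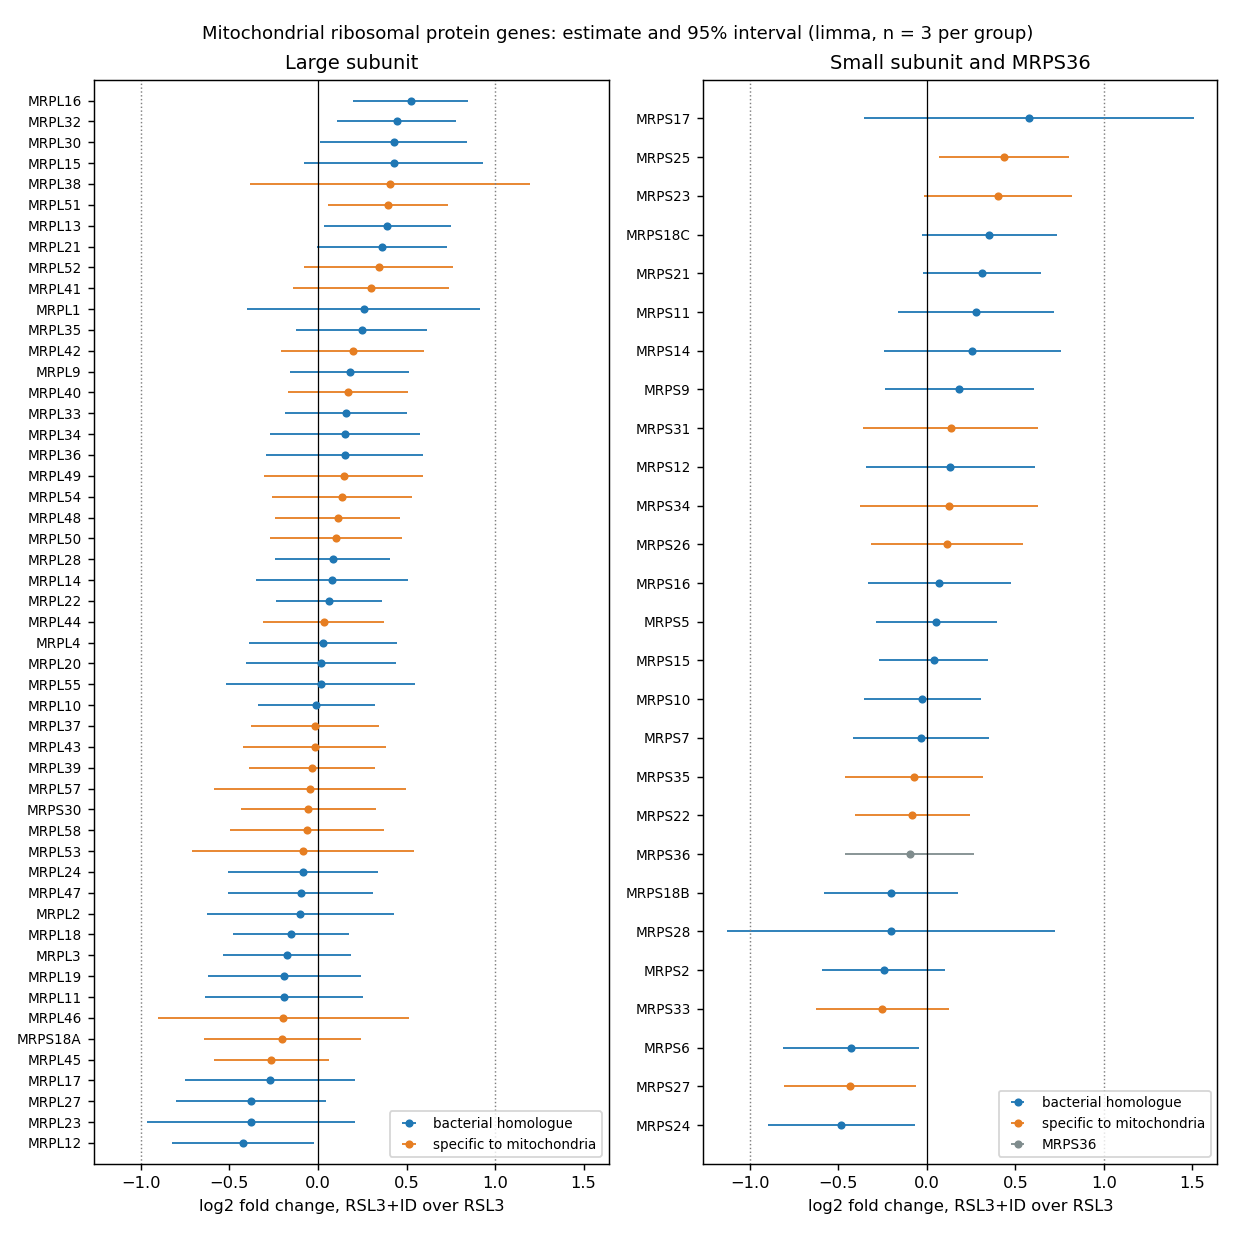
Log2 fold change of RSL3+ID over RSL3 (x axis) for each gene of the large subunit (left) and of the small subunit with MRPS36 (right), sorted by size; points are limma estimates, bars are 95% intervals (n = 3 libraries per group) and colours give the group of homology. Dotted lines mark a 2-fold change, and 75 of the 78 intervals lie between them.

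Separation of the groups without regard to a test was also no more frequent than over the genome. In 8 genes (10.3%) all RSL3+ID libraries lay above all RSL3 libraries, against 12.8% of all tested genes. In 4 genes (5.13%) they all lay below, against 12.6%. With 3 libraries against 3, an exact 2-sided permutation test of a single gene cannot give a p under 0.1. The higher set held MRPL13, MRPL16, MRPL32, MRPL33, MRPL35, MRPL51, MRPS21 and MRPS25, and the lower set MRPL45, MRPS24, MRPS27 and MRPS33, of which MRPL13, MRPL33, MRPL35, MRPL51 and MRPS33 were named after their values were seen.

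In the large subunit, 29 genes had positive and 22 negative estimates, with a median of 0.03. MRPL16, the homologue of a bacterial protein at the tRNA-binding cleft near the peptidyl transferase centre, had the smallest p of the family. It had 1266, 1437 and 1444 normalised counts in RSL3+ID libraries 1, 2 and 3, against 915, 904 and 1071 in RSL3 libraries 1, 2 and 3. All 3 RSL3+ID libraries were above the highest RSL3 library. The log2 fold change was 0.52 (SE 0.15, limma adjusted p = 0.0855), and it stayed between 0.48 and 0.60 when any 1 library was left out. In the authors' deposited table of changed genes MRPL16 was the sole member of the family, with a log2 fold change of 0.52 (adjusted p = 0.0339 by the authors). That table lists 2.55% of the identifiers.

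MRPL16 (ENSG00000166902) spans 59806135 to 59810872 on the minus strand of chromosome 11 (GRCh38), with 2271 bases of exon and no exon shared with another gene. Its promoter window from RefSeq (GRCh38.p14, chr11:59810729-59811028, minus strand) is shown because the gene had the smallest p of the family, with the ETS motif CCGGAAG in capitals as read on the opposite strand.
MRPL16: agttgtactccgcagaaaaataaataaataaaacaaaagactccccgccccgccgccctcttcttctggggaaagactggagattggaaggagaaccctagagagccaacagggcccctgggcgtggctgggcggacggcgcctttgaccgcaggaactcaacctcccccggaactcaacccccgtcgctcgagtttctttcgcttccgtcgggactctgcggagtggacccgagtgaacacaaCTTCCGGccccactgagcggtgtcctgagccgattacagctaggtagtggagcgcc

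MRPL32 showed the next smallest p. Its precursor is cut by the m-AAA protease, a step that ribosome assembly needs in yeast and mouse. The normalised counts of MRPL32 were 767, 851 and 829.9 in RSL3+ID libraries 1 to 3 and 544, 615 and 643 in RSL3 libraries 1 to 3, again without overlap. The log2 fold change was 0.44 (SE 0.16, adjusted p = 0.150). MRPL51, a protein specific to mitochondria, had 2037, 2756 and 2177 normalised counts in RSL3+ID and 1752, 1580.4 and 1939 in RSL3. The lowest RSL3+ID library exceeded the highest RSL3 library by a small margin, and the log2 fold change was 0.40 (adjusted p = 0.197). MRPL30, the homologue of a bacterial protein, had 936, 1320.3 and 815 in RSL3+ID against 759, 664 and 821 in RSL3. There RSL3+ID library 3 fell below RSL3 library 3, and the log2 fold change was 0.43 (adjusted p = 0.248), or 0.23 without RSL3+ID library 2.

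At the lower end of the large subunit stood MRPL12, which forms the flexible stalk that recruits translation factors and is also known to bind the mitochondrial RNA polymerase. MRPL12 had 482, 718 and 528 normalised counts in RSL3+ID libraries 1, 2 and 3, against 812, 694 and 782 in RSL3 libraries 1, 2 and 3. RSL3+ID libraries 1 and 3 lay below every RSL3 library, and RSL3+ID library 2 lay among them. The log2 fold change was −0.42 (SE 0.18, adjusted p = 0.230), and without RSL3+ID library 2 it was −0.59 (adjusted p = 0.0268). In GENCODE 29, 68.2% of the exon bases of MRPL12 are shared with AC139530.2 on the same strand, so reads in the shared part cannot be assigned to either gene. MRPL10, which anchors the stalk, had a log2 fold change of −0.01 (SE 0.15).

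MRPL23 and MRPL45 lie where the new protein leaves the ribosome. MRPL23, the docking site of factors at the tunnel in bacteria, had 501, 641 and 543 normalised counts in RSL3+ID, against 828, 437 and 1058 in RSL3. The RSL3 libraries of MRPL23 enclosed all 3 RSL3+ID libraries, and the log2 fold change was −0.38 (SE 0.27, adjusted p = 0.474). It was −0.74 without RSL3 library 2 and −0.11 without RSL3 library 3. MRPL45, which attaches the ribosome to the inner membrane, had 1217, 1533 and 1438 in RSL3+ID against 1666, 1534 and 1816 in RSL3. RSL3+ID library 2 and RSL3 library 2 differed by less than 1 normalised count there, and the log2 fold change was −0.26 (SE 0.15, adjusted p = 0.360). MRPL44, a protein with an RNase III fold, varied little, at 606, 574 and 617 in RSL3+ID against 604, 537 and 619.5 in RSL3 (log2 fold change 0.03, SE 0.16).

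The other large subunit genes chosen for a known role had estimates between −0.20 and 0.17. MRPL58, a peptidyl-tRNA hydrolase that rescues stalled ribosomes, had a log2 fold change of −0.06 (SE 0.20). MRPL40, a protein specific to mitochondria, had one of 0.17 (SE 0.16), and MRPL36, among the smallest proteins of the subunit, one of 0.15 (SE 0.21). MRPS30 stood at −0.06 (SE 0.18) and MRPS18A at −0.20 (SE 0.20). The abundant MRPL37 and MRPL14 stood at −0.02 and 0.08. None of these passed the test. Without RSL3+ID library 2 the estimate of MRPL14 turned to −0.14 and that of MRPL36 was 0.02, while MRPL58 stood at −0.24 and MRPS30 at −0.20.

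MRPL18, the most abundant member, had 19265, 13982 and 20622 normalised counts in RSL3+ID libraries 1, 2 and 3, against 20773, 19081 and 19241 in RSL3 libraries 1, 2 and 3. RSL3+ID library 2 was the lowest, as in 5 of the 78 genes (6.41%) and in 23.8% of all tested genes. For most of the family that library was the highest. The log2 fold change of MRPL18 was −0.15 (SE 0.15, adjusted p = 0.626) and 0.02 without RSL3+ID library 2. MRPL18 ranked 116th by level among all genes and took between 14.1% (RSL3+ID library 2) and 23.4% (RSL3 library 2) of the reads of the family. A shortened form of its product is known to join cytosolic ribosomes during heat stress, and these data count reads per gene and cannot show which form is made. TCP1, a subunit gene of the cytosolic chaperonin that starts on the opposite strand and was named for this position, had 18383, 13754 and 21660.2 in RSL3+ID against 20249 and 20264 in RSL3 libraries 1 and 2 and 16846 in library 3. It too was lowest in RSL3+ID library 2, with a log2 fold change of −0.11 (SE 0.17).

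The shared promoter of MRPL18 and TCP1 is shown because both genes were abundant and had their lowest level in the same library. MRPL18 (ENSG00000112110) spans 159789812 to 159798436 on the plus strand of chromosome 6. The window from RefSeq covers chr6:159789562-159789861 on the plus strand, and the capitals mark the bases that belong to TCP1, at the left, and to MRPL18, at the right. In RefSeq 209 bases lie between the genes, and in GENCODE 29, with a longer form of TCP1, the starts are 63 bases apart.
MRPL18: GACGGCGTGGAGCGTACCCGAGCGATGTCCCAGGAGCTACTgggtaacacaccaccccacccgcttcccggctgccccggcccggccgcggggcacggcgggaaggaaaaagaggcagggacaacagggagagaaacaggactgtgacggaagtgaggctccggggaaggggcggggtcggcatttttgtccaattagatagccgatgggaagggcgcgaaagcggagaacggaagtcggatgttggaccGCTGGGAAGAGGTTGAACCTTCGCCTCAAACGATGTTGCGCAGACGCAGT

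In the small subunit 15 genes had positive and 11 negative estimates, with a median of 0.06. On the higher side was MRPS25, a protein specific to mitochondria, with 1056, 1294 and 1004 normalised counts in RSL3+ID against 789.9, 728 and 966 in RSL3. The groups did not overlap, and the log2 fold change was 0.43 (SE 0.17, adjusted p = 0.190). MRPS21 had 1801, 2154 and 1812 in RSL3+ID against 1477, 1384 and 1792 in RSL3, without overlap, and a log2 fold change of 0.31 (adjusted p = 0.287). MRPS23, also specific to mitochondria, had 1509, 2434 and 2206 in RSL3+ID against 1462, 1328 and 1811 in RSL3. Its RSL3+ID library 1 lay below RSL3 library 3, and the log2 fold change was 0.40 (adjusted p = 0.278), or 0.26 without RSL3+ID library 2. MRPS17 had the largest estimate of the family, 0.58, from 40.1, 79.3 and 29.8 in RSL3+ID against 35.7, 27.9 and 27.9 in RSL3. This difference rested largely on RSL3+ID library 2, without which the estimate was 0.19, and the 95% interval with it ran from −0.35 to 1.51.

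The lower side of the small subunit was led by MRPS24, the homologue of a bacterial protein at the entry of the mRNA channel. MRPS24 had 224, 209 and 232 normalised counts in RSL3+ID libraries 1, 2 and 3, against 289, 320.2 and 323 in RSL3 libraries 1, 2 and 3. The groups were clearly apart, and each had a small spread, 222 ± 11.6 in RSL3+ID and 311 ± 19.2 in RSL3 (mean ± SD, n = 3 each). The log2 fold change was −0.48 (SE 0.19, adjusted p = 0.194), and it stayed between −0.54 and −0.44 when any 1 library was left out. In GENCODE 29, 23.2% of the exon bases of MRPS24 also belong to the readthrough gene URGCP-MRPS24 on the same strand. MRPS24 (ENSG00000062582) spans 43866558 to 43869893 on the minus strand of chromosome 7. Its RefSeq promoter window (chr7:43869468-43869767, minus strand) is shown because the gene had the most negative estimate, with the YY1 motif AAGATGGC in capitals. This window is set by a RefSeq start and lies wholly inside the span given above, which is that of GENCODE 29.
MRPS24: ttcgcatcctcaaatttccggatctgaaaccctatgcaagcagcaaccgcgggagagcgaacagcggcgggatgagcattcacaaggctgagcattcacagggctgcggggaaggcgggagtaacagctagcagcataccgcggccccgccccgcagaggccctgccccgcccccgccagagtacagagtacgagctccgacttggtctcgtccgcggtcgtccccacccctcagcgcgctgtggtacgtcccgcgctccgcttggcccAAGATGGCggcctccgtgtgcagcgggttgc

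MRPS27, an RNA-binding protein with pentatricopeptide repeats, had 417, 556 and 502 normalised counts in RSL3+ID against 702, 631 and 647 in RSL3. The groups did not overlap, and the log2 difference was −0.43 (SE 0.17, adjusted p = 0.194). MRPS6, the homologue of a bacterial platform protein, had 1760.4, 2516 and 1633 in RSL3+ID against 2705, 2279.7 and 2860.0 in RSL3. As for MRPL12, RSL3+ID library 2 lay within the range of the RSL3 libraries and the other RSL3+ID libraries lay below it. The log2 fold change of MRPS6 was −0.43 (SE 0.18, adjusted p = 0.210), and without RSL3+ID library 2 it was −0.62 (adjusted p = 0.00692).

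The MRPS18 genes are 3 paralogues of 1 bacterial protein. MRPS18C, in the small subunit, stood at 0.35 on the log2 scale (SE 0.18, adjusted p = 0.296). MRPS18B, also in the small subunit, and MRPS18A, in the large one, each had −0.20 (adjusted p = 0.563 and 0.633). The differences among these paralogues were not tested. MRPS12, which lines the decoding centre, stood at 0.13 (SE 0.22), MRPS22 at −0.08 (SE 0.15), MRPS34 at 0.12 (SE 0.23) and the abundant MRPS26 at 0.11 (SE 0.20). Without RSL3+ID library 2 the estimates of MRPS12, MRPS34 and MRPS26 turned to −0.07, −0.15 and −0.09. MRPS36, the ketoglutarate dehydrogenase component, stood at −0.10 (SE 0.17). Its highest library was RSL3+ID library 3 and its lowest RSL3+ID library 2, at 1076 and 799.

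**Figure D3:**
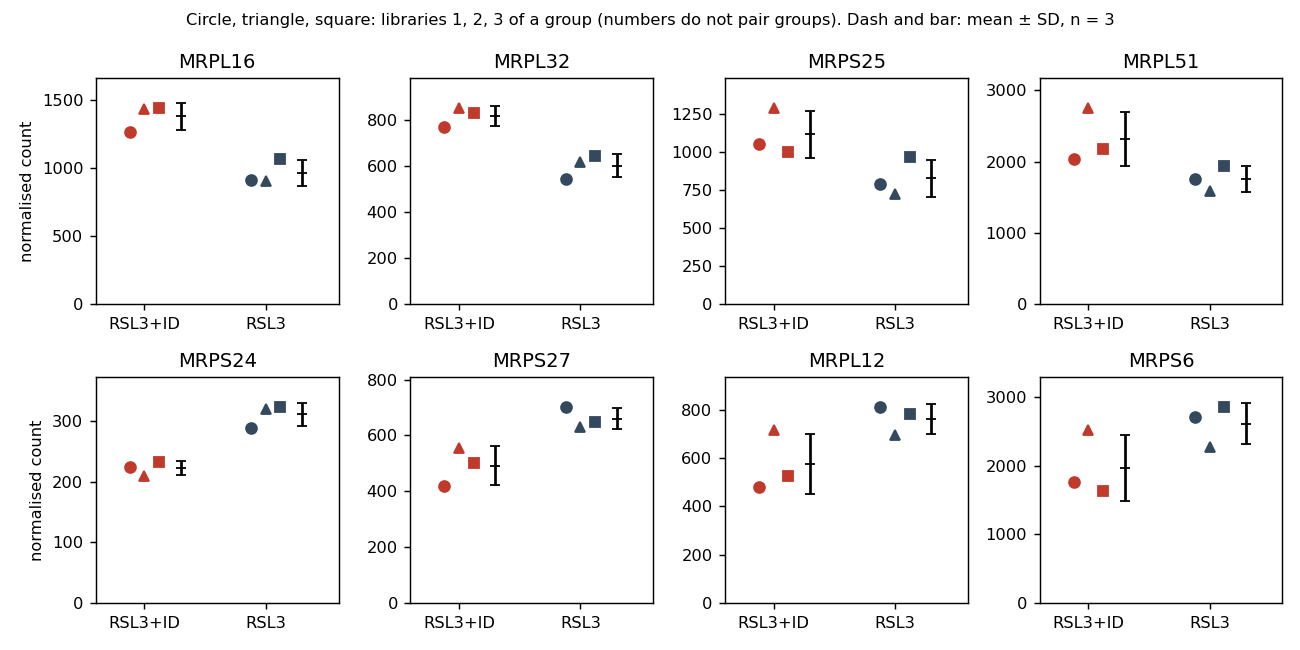
Normalised counts on axes from 0 for the 4 genes that led the higher side at unadjusted p (top) and the 4 of the lower side (bottom), RSL3+ID left of RSL3; symbols give the library number and black marks the mean ± SD (n = 3). In MRPL12 and MRPS6 the triangle, RSL3+ID library 2, lies within the range of the RSL3 libraries.

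Differences between single libraries were larger than the difference between groups. For each gene the deviation from its own mean over the 6 libraries was taken on the log2 scale. The median deviation of the family was −0.16, 0.28 and −0.01 in RSL3+ID libraries 1, 2 and 3 and −0.05, −0.17 and 0.12 in RSL3 libraries 1, 2 and 3. The highest and the second lowest of these medians thus belong to the same group. RSL3+ID library 2 was the highest library for 45 of the 78 genes (57.7%), against 25.4% of all tested genes. RSL3 library 2 was the lowest for 32 (41.0%) and RSL3+ID library 1 for 28 (35.9%), against 18% and 15.6% of all tested genes. Among the 77 tested respiratory chain genes, RSL3+ID library 2 was highest for 53.2%. RSL3 library 2 was lowest for 54.5% of them and RSL3+ID library 1 for 13.0%. For the 82 tested cytosolic ribosomal protein genes the same 3 shares were 24.4%, 58.5% and 0%. The family took 0.488%, 0.622% and 0.513% of the reads in RSL3+ID libraries 1 to 3, against 0.558%, 0.520% and 0.620% in RSL3 libraries 1 to 3. Without MRPL18 these shares were 0.374%, 0.534% and 0.397% in RSL3+ID and 0.428%, 0.398% and 0.498% in RSL3.

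In both subunits RSL3+ID library 2 had the highest median deviation, 0.28 for the large and 0.26 for the small subunit, and RSL3 library 2 the lowest, −0.16 and −0.24. In some libraries the deviation of the genes also varied with their GC content. Taken over the 78 genes, which share libraries and are no replicates, the deviation correlated with GC content (Spearman) at −0.04, 0.23 and −0.37 in RSL3+ID libraries 1 to 3. In RSL3 libraries 1 to 3 it was −0.06, −0.33 and 0.45. Over all tested genes the same correlation was −0.001, 0.15 and −0.10 in RSL3+ID libraries 1 to 3. In RSL3 libraries 1 to 3 it was 0.01, −0.24 and 0.23 over all tested genes, so it was not particular to the family. The median GC content was 47.7% in the family and 48.8% over all tested genes. With exon length the deviation correlated over all tested genes at −0.02, −0.22 and −0.19 in RSL3+ID libraries 1 to 3. In RSL3 libraries 1 to 3 that correlation was 0.17, 0.29 and −0.01. Inside the family it was 0.08, −0.08 and 0.07 in RSL3+ID and −0.09, 0.04 and −0.07 in RSL3. The part of GC content or exon length in the pattern of libraries was not tested. The fold change correlated with exon length at 0.05 inside the family and at −0.26 over all tested genes (Spearman). The median exon length of the family was 2539 bases, against 4896 over all tested genes.

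**Figure D4:**
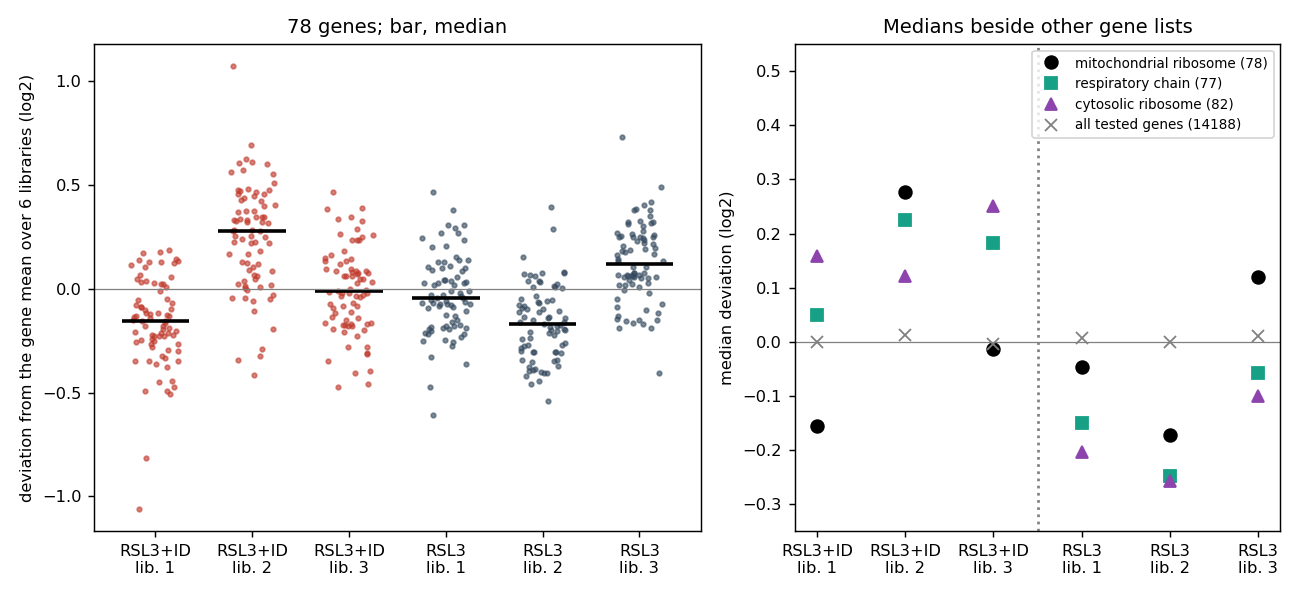
Left, deviation of each of the 78 genes from its mean over the 6 libraries (log2, 1 point per gene, bar at the median), RSL3+ID libraries left of RSL3 libraries; RSL3+ID library 2 has the highest median, 0.28. Right, the medians of the family beside those of respiratory chain subunits, cytosolic ribosomal proteins and all tested genes; the cytosolic ribosomal proteins are positive in all RSL3+ID libraries and negative in all RSL3 libraries, and the family is not.

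Without RSL3+ID library 2, 34 estimates were positive and 44 negative, with a median of −0.04, and 1325 of 14188 genes passed (9.34%). In the family 3 genes passed then, MRPL16 higher (log2 fold change 0.49, limma adjusted p = 0.0433) and MRPS6 and MRPL12 lower, with the values given above. When each of the other 5 libraries was left out in turn, no member passed, and between 0 and 4 of all tested genes did. Over the reported setting and 16 others, 24 genes had a positive estimate in each setting that tested them and 16 a negative one, while 38 took both signs. MRPS17, one of the 24, was not tested with a filter at a mean of 50. MRPL16, MRPL32, MRPL51, MRPS25, MRPS24, MRPS27, MRPL12 and MRPS6 kept their signs in all of them.

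**Figure D5:**
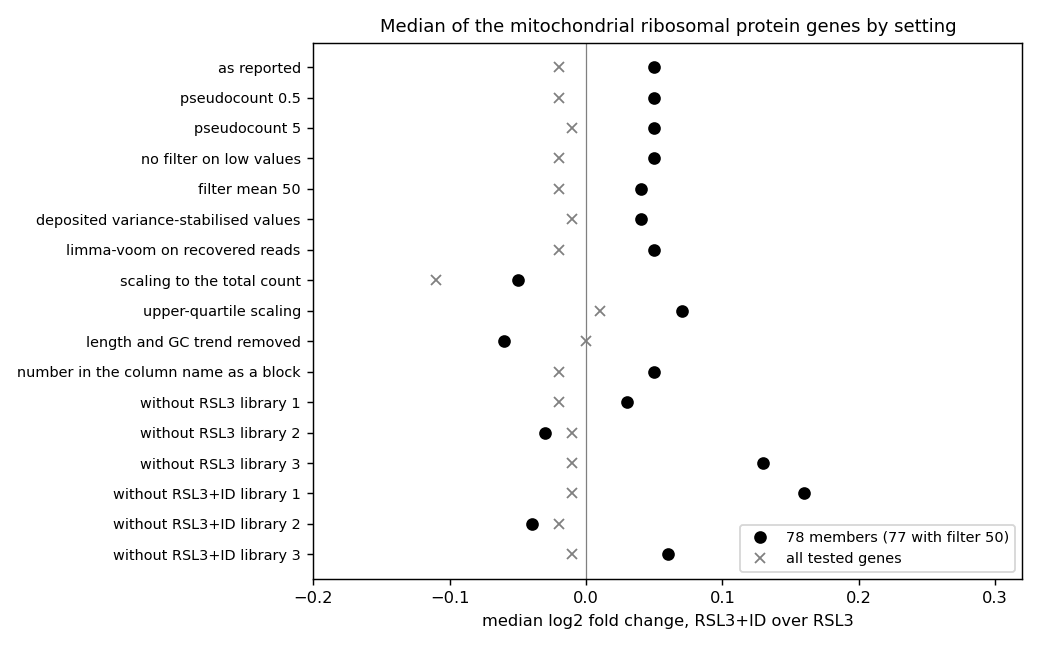
Median log2 fold change of RSL3+ID over RSL3 (x axis) for the mitochondrial ribosomal protein genes (points) and all tested genes (crosses) in the reported analysis and 16 alternatives. The median of the family lies between −0.06 and 0.16 and is below 0 in 4 of the alternatives.

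Genes that work with the mitochondrial ribosome also gave no calls. Over all tested genes 1.91% were called, so 0 calls in lists this short does not set them apart. Of the mitochondrial ribosomal proteins with other names, 5 were tested and 0 called. DAP3, a GTP-binding protein of the small subunit, had 2954, 3939 and 3064 normalised counts in RSL3+ID against 3007, 2541 and 3346 in RSL3 (log2 fold change 0.16, SE 0.16). AURKAIP1 and CHCHD1, also of the small subunit, stood at 0.19 and 0.25 and GADD45GIP1, of the large subunit, at −0.02. PTCD3, a pentatricopeptide protein of the small subunit, had 216, 266 and 135 in RSL3+ID against 297, 331 and 257 in RSL3. Its RSL3+ID library 2 overlapped with RSL3 library 3, and the log2 fold change was −0.56 (SE 0.26, adjusted p = 0.257).

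Of 28 tested assembly and ribosomal RNA modification factors (29 listed), 14 had positive and 14 negative estimates, with a median of −0.01 and 0 calls. At an unadjusted p under 0.05, 2 were higher and 1 lower, against 19.3% of all tested genes in either direction. The higher ones, NDUFAB1 and YBEY, were also named after their values were seen, and their groups did not overlap. NDUFAB1 had 1367, 2160 and 1425 normalised counts in RSL3+ID against 1147, 1016 and 1101 in RSL3 (log2 fold change 0.57, adjusted p = 0.119). YBEY had a log2 fold change of 0.54 (adjusted p = 0.203). The lower one, DHX30, an RNA helicase named after its values were seen, had 1331, 1482 and 1220 normalised counts in RSL3+ID against 1954, 1757 and 2080.5 in RSL3. All RSL3+ID libraries lay below all RSL3 libraries, as in 12.6% of all tested genes, and the log2 difference was −0.52 (adjusted p = 0.0817). The list of translation factors is wider than its name, since it also holds OXA1L, which inserts proteins into the inner membrane. Its 17 tested genes had 7 positive and 10 negative estimates (median −0.02, 0 calls). Among these TUFM, the mitochondrial elongation factor Tu, stood at 0.19 (SE 0.12, adjusted p = 0.417). At an unadjusted p under 0.05, 2 of the 17 were higher and 2 lower. The largest estimates each way were 0.71 for MTRES1 (adjusted p = 0.150) and −0.58 for OXA1L (adjusted p = 0.159), both named after their values were seen. The list of mitochondrial transcription held 9 genes, among them POLG, POLG2 and TWNK, which serve the copying of mitochondrial DNA. It had 4 positive and 5 negative estimates (median −0.15, the estimate of POLG, 0 calls). At an unadjusted p under 0.05, 0 of the 9 were higher and 3 lower, TWNK among the 3. POLRMT, the mitochondrial RNA polymerase, had 563, 743 and 540.1 normalised counts in RSL3+ID against 802, 777 and 1017 in RSL3. All 3 RSL3+ID libraries lay below all RSL3 libraries, and the log2 difference was −0.50 (SE 0.18, adjusted p = 0.168). TFAM, which packages mitochondrial DNA and starts its transcription, stood at 0.09 (SE 0.16).

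Of 9 regulators of nuclear genes for mitochondrial proteins, 5 had positive and 4 negative estimates and 0 passed. At an unadjusted p under 0.05 there were 0 higher and 3 lower, against 19.3% of all tested genes in either direction. PPRC1 and PPARGC1B, coactivators named after their values were seen, were lower in every RSL3+ID library than in any RSL3 library. Such a separation was found in 12.6% of all tested genes. PPRC1 had 566, 407 and 366 normalised counts in RSL3+ID against 706, 695 and 688 in RSL3 (log2 difference −0.67, adjusted p = 0.0849). PPARGC1B had 22.2, 16.9 and 16.4 in RSL3+ID against 34.8, 50.6 and 41.3 in RSL3 (−1.15, adjusted p = 0.161). PPARGC1A, also of this list and of low level, went the other way. Its log2 fold change of 1.86 (SE 1.03, adjusted p = 0.348) was the largest of the list. Its groups overlapped, since RSL3+ID library 2 lay below RSL3 libraries 1 and 2. Without RSL3 library 3, in which PPARGC1A had no read, the estimate was 0.33. GABPA, the DNA-binding subunit of an ETS factor known to drive such genes, had 753, 456 and 736 normalised counts in RSL3+ID against 784, 1314 and 765 in RSL3. RSL3+ID library 2 was the lowest and RSL3 library 2 the highest, while in most of the family RSL3+ID library 2 was the highest. Its log2 fold change was −0.55 (SE 0.25, adjusted p = 0.247), or −0.31 without RSL3+ID library 2. NRF1 and YY1, DNA-binding factors of the same list, stood at 0.10 (SE 0.23) and 0.01 (SE 0.15).

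The promoters of the family share motifs that the rule of membership did not use. RefSeq windows of 300 bases, from 250 before to 50 after the start, were matched to 69 of the 78 genes, 85 windows in all, and both strands were searched. The ETS motif CCGGAAG was present for 30 of the 69 genes (43.5%), against 22% of tested protein-coding genes and 12.2% of all genes with a window. The YY1 motif AAGATGGC was present for 21 (30.4%), against 6.2% and 3.52%. At least 1 of these motifs was present for 62.3% of the family and 26.5% of tested protein-coding genes, and no gene's matches to the ETS and YY1 motifs shared bases. The NRF1 motif, GCGC and TGCGC with any base between them, was present for 13% of the family and 12.9% of tested protein-coding genes, and TATAAA for 4.35% and 8.64%. Among members with positive estimates 47.5% held the ETS motif and 27.5% the YY1 motif, and among members with negative estimates 37.9% and 34.5% did. These matches are descriptions of letters in a window and were not tested.

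Divergent neighbours were common in the family. In GENCODE 29, 17 of the 78 genes (21.8%) have a protein-coding gene on the opposite strand that starts up to 1000 bases upstream and runs the other way. Of 13118 tested protein-coding genes 9.60% do, a difference that was not tested. Pairs whose first bases overlap were not counted in either share. MRPL46 and MRPS11 form such a pair with 34 bases between their starts. Their estimates were −0.20 (SE 0.33) and 0.28 (SE 0.20). Without RSL3+ID library 2 these estimates were −0.59 for MRPL46 and 0.13 for MRPS11. MRPL36 and MRPL47 each start beside a gene of a respiratory complex I subunit, NDUFS6 at 34 bases and NDUFB5 at 36 bases. NDUFS6 had a log2 fold change of 0.16 and NDUFB5 one of −0.16, beside 0.15 for MRPL36 and −0.10 for MRPL47. Member and neighbour had the same sign in 5 of the 16 cases with a tested neighbour, in which MRPL46 and MRPS11 count from both sides. None of these neighbours passed in limma. The strand setting of the authors' counting is not given in the sources used here, and 16 members share exon bases with a gene on the same strand and 29 with one on the opposite strand. Many of these genes also have processed pseudogenes, and how reads that fit both were counted is not stated.

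Set beside 2 related groups of genes, the family had the smallest median. The 78 mitochondrial ribosomal genes had 44 positive and 34 negative estimates, a median of 0.05 and 0 calls. The 77 tested nuclear genes of respiratory chain subunits, which work with the products of the mitochondrial ribosome, had 67 positive and 10 negative estimates, a median of 0.31 and 5 higher and 0 lower calls. The 82 tested genes of cytosolic ribosomal proteins had 80 positive and 2 negative estimates, a median of 0.36 and 6 higher and 0 lower calls. Of all tested genes 1.08% were called higher. Both lists had 0 calls with the replicate number as a block and when any 1 of the libraries other than RSL3+ID library 2 was left out. With scaling to the total count the respiratory chain had 0 calls and the cytosolic ribosome 2. Once the trend on length and GC was removed the respiratory chain had 2 calls and a median of 0.15, and the cytosolic ribosome 3 calls and a median of 0.28. Without RSL3+ID library 2 the higher calls were 1 of 78 for the mitochondrial ribosome, 16 of 77 for the respiratory chain and 49 of 82 for the cytosolic ribosome, with medians of −0.04, 0.27 and 0.39, against 742 of 14188 over all tested genes (5.23%). Median exon lengths in the same order of lists were 2539, 2475 and 2992 bases. All of these values come from the same 6 libraries, and the differences between the lists were not tested.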

How the data were processed

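Total RNA of 6 BEAS-2B libraries, 3 per group, was extracted with TRIzol and prepared with an NEBNext Ultra kit for RNA libraries, per the labels' protocols. Groups follow the treatment field, since every title begins RSL3+M, where M has no stated meaning. Columns were assigned to groups by name (a garbled word added to RSL3 reads as "drug given" in Chinese) and not to single samples. Per the submitters' processing notes, the authors used DESeq2 1.30.0, StringTie 2.1.5, HISAT2 2.2.1, Trimmomatic 0.39 and GRCh38 (hg38), with no roles given. How reads were counted, with or without strand, and on which annotation is not given in the sources used here.

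The expression table the authors deposited holds log2 values with a shared lowest value of 6.04, in the form of the variance-stabilising transform of DESeq2, a tool the authors list. Inverting it gave normalised counts, and 100.0% of values lay within 0.001 of a whole read after division by the step of the column. The deposited table of changed genes gives a base mean (a signal averaged over libraries), log2 fold changes, a Wald score and p-values, per the file headers. The recovered means matched its base mean within a relative difference of 2.5e-14 for 894 genes, and all 894 signs were those of RSL3+ID over RSL3.

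Log2(normalised count + 1) was tested with limma 3.58.1 (R 4.3.3, trended and robust empirical Bayes, 2-sided, Benjamini-Hochberg over 14188 genes with a mean of at least 10); this scale understates changes of low genes. The limma step was tested on simulated data. Negative binomial count tests were not used because the deposited unit is log2; limma-voom on the recovered reads was an alternative. At this depth 3 reads correspond to 0.162 to 0.197 CPM, counting error only. Exon lengths, positions and neighbours come from GENCODE 29 and promoter windows from RefSeq, both on GRCh38.

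The genes, lists and tests were chosen with earlier results of these data known. Named members are those past the threshold or in the authors' table, the 5 largest estimates each way, the 2 most abundant per subunit by count and per length, and a list chosen for known roles. Alternatives covered pseudocount, filter, scaling, the deposited log2 values, limma-voom, a length and GC trend, the replicate number as a block, and each library left out. Numbers in the column names were not taken to pair the groups in the reported fit. Same-numbered libraries correlated at −0.00, −0.25 and −0.18 in their deviations from group means, and differently numbered ones at −0.19 to 0.31. With 3 libraries per group these values cannot show whether the libraries were made as pairs.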

Additional observations from a re-analysis of the deposited data

How the results depend on the processing

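The median of the family, 0.05, turned to −0.05 with scaling to the total count (−0.06 large and −0.03 small subunit), which moved all genes to −0.11, and to −0.06 once the trend on length and GC was removed (−0.06 in both subunits). Leaving out single libraries gave −0.04 at the lowest (RSL3+ID library 2 left out) and 0.16 at the highest (RSL3+ID library 1 left out), with −0.03 to 0.16 for the large and −0.06 to 0.16 for the small subunit. It was also −0.03 without RSL3 library 2. All these shifts are smaller than the spread of the family median between libraries (SD 0.19). The cause was not tested.

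The 0 higher and 0 lower members became 1 and 2 without RSL3+ID library 2 (ranges 0 to 1 and 0 to 2 with 1 library left out), and the 271 calls over all genes ranged from 0 to 1325. With the replicate number as a block 0 genes passed. That fit and every other alternative with all 6 libraries called 0 members. Of 30 named members 19 kept their sign in every alternative that tested them (MRPS17 was not tested with a filter at a mean of 50) and 11 did not.

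The intervals were widest for genes of low level (MRPS17, MRPL38 and MRPS28); the median SE of the family was 0.19.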
